A study of Sus scrofa with 12 samples.

Results

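The genes described here are the HES and HEY transcription factors and the Notch pathway genes HES1, HES4, HEY1, HEY2, NOTCH1, NOTCH2, NOTCH3, DLL1, JAG1 and LFNG, measured by RNA-seq in pig induced pluripotent stem (iPS) cells. They were chosen by gene symbol. Of the 10 symbols, 9 had a row among the 24358 genes of each expression table, and NOTCH1 is not analysed here. All 9 passed the filter on low values in both comparisons.

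The cells are PC-iPS cells, pig iPS cells made from pericytes, the mural cells that wrap small blood vessels, and they were grown in LCDMV, a medium with LIF, small-molecule inhibitors and vitamin C. The study has 4 groups of 3 libraries each. WT PC-iPS cells carry no reporter. NANOG knock-in PC-iPS cells carry a tdTomato reporter inserted at the NANOG loci by CRISPR/Cas9 and were enriched for red cells. Their 3 lines are mixed populations in which the insertion can differ between cells, and some cells may be wild type, so the comparison with WT is not one of isogenic clones. The Activin A and SB431542 groups are knock-in reporter cells grown in LCDMV without LIF and given either Activin A, a TGF-β family ligand that signals through SMAD2 and SMAD3, or SB431542, an inhibitor of the receptors for Activin and TGF-β. All 4 groups share the pericyte origin, and feeder cells were removed before RNA extraction by letting them attach. An untreated library in the same medium was not analysed here, so Activin A was compared with the inhibitor and not with untreated cells.

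Notch receptors are cut when a ligand of the Delta or Jagged family on a neighbouring cell binds them, and the freed intracellular domain enters the nucleus and joins RBPJ to switch on target genes. HES and HEY genes, which encode basic helix-loop-helix repressors, are the best known of these targets and in neural progenitors hold back proneural genes. Some of them, HES1 and HEY1 among them, are also known to respond to TGF-β and BMP signals. LFNG encodes a glycosyltransferase that lengthens sugars on Notch receptors and changes which ligands they answer to. In embryonic stem cells the pathway is known for its part in the choice of neural fate.

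Values are FPKM, fragment counts scaled for transcript length and library size. Differences are between group means of log2(FPKM + 1), which understates the fold change of genes near or under 1 FPKM. A gene was called when this difference was at least 1 in either direction and the Benjamini-Hochberg adjusted p from limma over all genes tested was at most 0.05. FPKM summed to between 364241 and 390320 per library, and 15339 to 15827 genes were above 0. Read totals were not used here, so absolute depth is unknown. Relative depth, estimated from how the lowest values scale between libraries, was 0.563 to 0.637 in WT and 0.722 to 1 in knock-in libraries (1 being knock-in library 1), and its part in the differences between these groups was not tested. It was 0.865 to 0.966 under Activin A and 0.829 to 0.953 under SB431542.

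NANOG, into which the reporter was inserted, was at 52.0, 101 and 70.4 FPKM in the knock-in libraries and at 9.71, 16.4 and 27.6 in WT (difference 2.06, limma adjusted p = 0.025). It stood at 109, 195 and 157 FPKM under Activin A and at 11.8, 27.2 and 11.8 under SB431542 (difference 3.18, limma adjusted p = 0.042). The labelled groups were thus apart in this gene in both tables.

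In knock-in against WT cells, 5 of the 9 genes were called, where 2.31% of the 14014 genes tested were. HES1, HES4, HEY1 and LFNG were called higher (1.61% of all genes were) and DLL1 was called lower (0.706% of all genes were). The knock-in and WT ranges did not overlap for 6 of the 9 genes, 5 of them higher and 1 lower, while 35.7% of all genes had separate ranges, 19% higher and 16.7% lower. The median difference over the 4 HES and HEY genes was 1.40, that over the 4 receptor and ligand genes was 0.14, and that over all genes tested was -0.0014.

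HES1, the main effector of the pathway in many tissues, was at 10.2, 16.0 and 18.8 FPKM in the 3 knock-in libraries and at 1.94, 1.79 and 2.04 in the 3 WT libraries. Every knock-in library was far above every WT library, and the WT libraries lay close together. The ratio of the means was 7.80, and the difference was 2.41 ± 0.22 (SE, n = 3 per group, 95% confidence interval 1.90 to 2.92, limma adjusted p = 0.0033). In bulk samples such as these, fewer cells that use a gene and less RNA of it per cell cannot be told apart.

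HES4, a close relative of HES1, was the most abundant of the 4 effectors in WT cells at 9.81, 13.4 and 14.7 FPKM. It was at 34.0, 32.5 and 37.0 in the knock-in libraries. The ranges were separate, with little spread inside either group, and the difference was 1.40 ± 0.15 (SE, n = 3 per group, 95% confidence interval 1.04 to 1.76, limma adjusted p = 0.0067).

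HEY1, an effector best known in vessel and heart development, was low in WT at 0.298, 0.333 and 0.169 FPKM and reached 1.83, 3.20 and 2.11 in knock-in cells. The lowest knock-in library was above all 3 WT libraries. The ratio of the means was 8.94, larger than that of HES1, while the difference on the log2(FPKM + 1) scale was 1.40 ± 0.17 (SE, n = 3 per group, 95% confidence interval 1.01 to 1.79, limma adjusted p = 0.0088). HES1, HES4 and HEY1 were called in all 16 alternative settings, which include leaving out each library in turn.

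HEY2, a relative of HEY1, was at 1.80, 2.20 and 2.19 FPKM in knock-in and at 0.365, 0.934 and 0.733 in WT libraries. The ranges did not overlap, and the ratio of the means was 3.04. The difference of 0.88 ± 0.16 (SE, n = 3 per group, 95% confidence interval 0.51 to 1.25, limma adjusted p = 0.025) was below the size set for a call. With a pseudocount of 0.1 it was 1.55 (limma adjusted p = 0.037) and HEY2 was called, as it also was at a pseudocount of 0.01 and after rescaling to TPM.

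**Figure D1:**
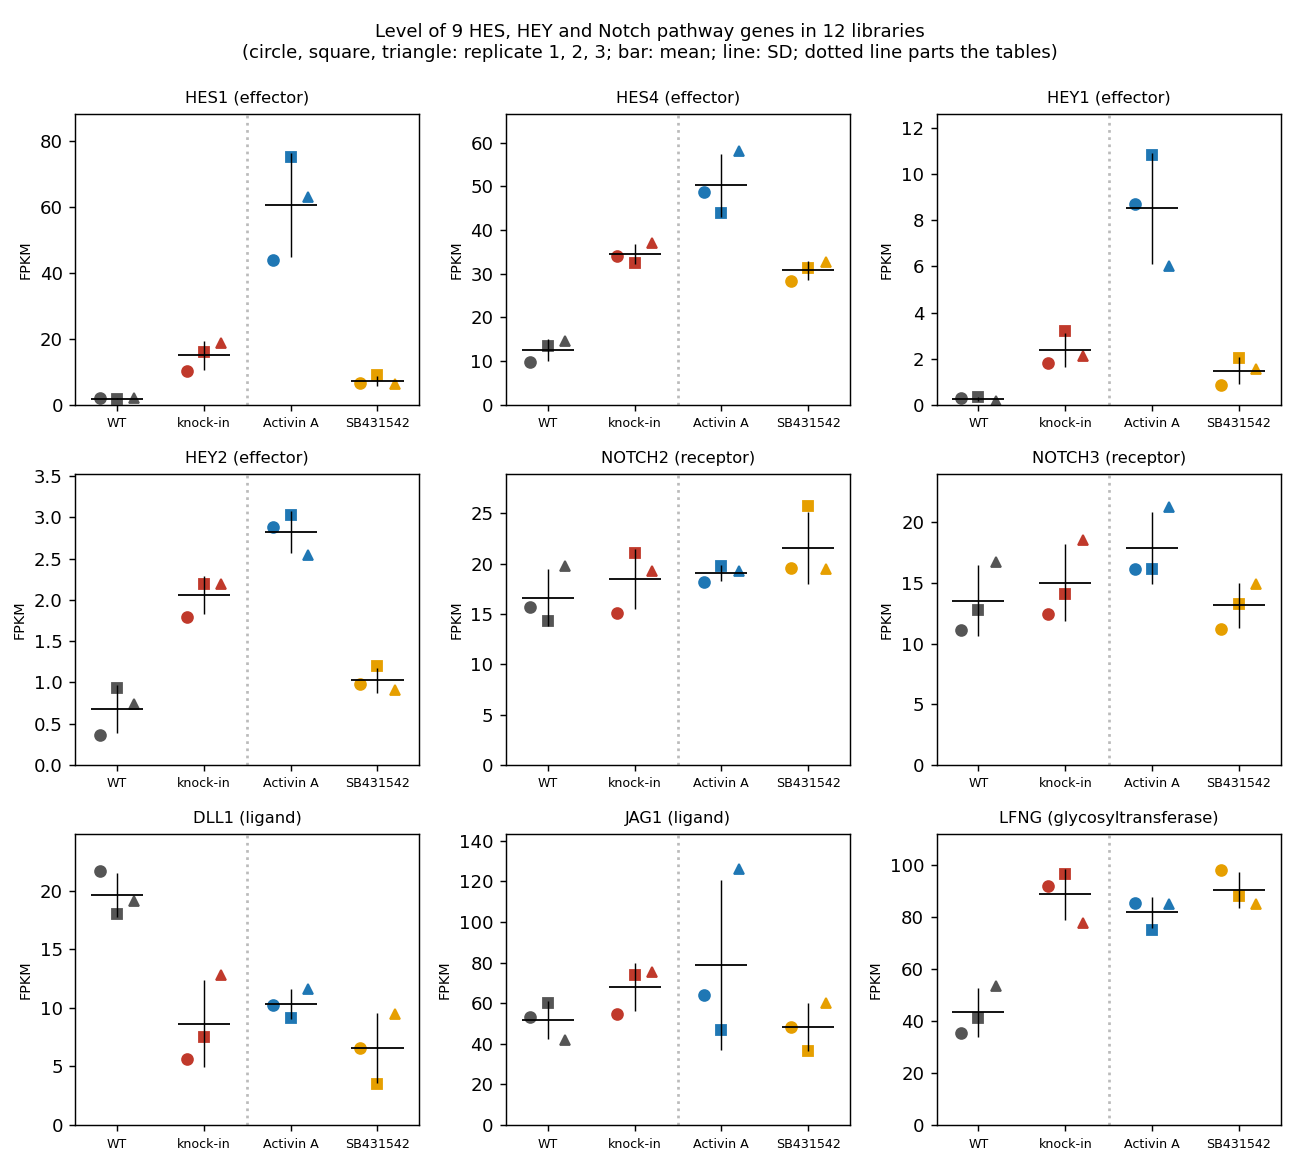
FPKM (linear axis from 0) of the 9 genes in each of the 12 libraries, with the group mean as a bar, the SD as a line and the replicate number as the marker shape. HES1 reached 75.4 FPKM under Activin A against 1.79 in the lowest WT library, while NOTCH2 stayed between 14.3 and 25.7 in all 12 libraries.

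The 2 receptors with a row were not called. NOTCH2, a widely expressed receptor, was at 15.1, 21.0 and 19.3 FPKM in knock-in and at 15.7, 14.3 and 19.8 in WT cells, and NOTCH3, the receptor typical of mural cells, was at 12.4, 14.1 and 18.5 against 11.08, 12.7 and 16.7. Their ranges overlapped. The differences were 0.14 for both, with 95% confidence intervals of -0.24 to 0.53 for NOTCH2 and -0.31 to 0.60 for NOTCH3 (limma adjusted p = 0.60 and 0.67). The value for NOTCH3 was -0.01 without knock-in library 3, its highest library.

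DLL1, a Delta-type ligand, moved the other way from the effectors. It was at 21.7, 18.0 and 19.1 FPKM in WT and at 5.62, 7.46 and 12.8 in knock-in libraries. Every knock-in library was below every WT library, with knock-in library 3 nearest to them. WT exceeded knock-in 2.28-fold in the means, and the difference was -1.16 ± 0.25 (SE, n = 3 per group, 95% confidence interval -1.76 to -0.57, limma adjusted p = 0.040). The call was lost without any 1 of knock-in libraries 1 or 2 or WT libraries 1, 2 or 3, where the difference ran from -1.22 to -0.93 and the limma adjusted p from 0.062 to 0.13, and also with no filter on low values (limma adjusted p = 0.074).

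JAG1, a Jagged-type ligand and the most abundant ligand among these genes, was at 54.6, 74.0 and 75.3 FPKM in knock-in and at 53.3, 60.3 and 41.8 in WT cells. The ranges overlapped, and the difference of 0.39 was not called (95% confidence interval -0.02 to 0.79, limma adjusted p = 0.19).

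LFNG was at 91.8, 96.4 and 77.6 FPKM in knock-in and at 35.3, 40.9 and 53.5 in WT cells. All knock-in libraries were above all WT libraries. The difference was 1.03 ± 0.16 (SE, n = 3 per group, 95% confidence interval 0.65 to 1.41, limma adjusted p = 0.019), just past the size set for a call. The call was lost without knock-in library 1 or 2 or WT library 1 or 2, where the difference ran from 0.90 to 1.00 and the limma adjusted p from 0.050 to 0.076, and it was lost after quantile normalization, at 0.91 (limma adjusted p = 0.027).

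The p-values measure the spread between these libraries. The 3 knock-in numbers stand for 3 lines, whereas the labels do not say whether the WT libraries came from separate cultures, so that part of the spread may be technical. An exact two-sided permutation test of 3 against 3 libraries cannot go below p = 0.1, and the 6 genes with separate ranges each reached that value.

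Markers of other cell types differed between these groups too. The 10 listed pericyte and mural cell markers summed to 33.8 to 43.0 FPKM in WT and 332 to 495 in knock-in libraries, with TAGLN, ACTA2 and PDGFRB called higher. TAGLN made up most of the sum in knock-in, at a mean of 403 FPKM against 20.9 in WT. MCAM (difference -0.02) and KCNJ8 (0.04) overlapped, and DES was lower, at 0.0322 against 0.425 with separate ranges, but below the filter on low values and not tested. In each of these groups 5 of the 10 were under 1 FPKM in all 3 libraries. The 11 fibroblast and feeder markers summed to 12.5 to 22.6 in WT and 43.1 to 63.4 in knock-in, with DCN, TWIST1 and TWIST2 called higher. COL1A1 of that list lay lower in knock-in, at a mean of 0.622 against 1.13 FPKM with separate ranges, and PDGFRA was also lower in the mean, and neither was called. LUM and POSTN were lower in the mean too but were below the filter on low values and not tested. The 9 trophectoderm markers summed to 13.0 to 19.5 in WT and 77.5 to 513 in knock-in, with KRT8 and TFAP2A called higher. KRT8 made up most of the sum in knock-in and spread widely between the libraries, from 44.3 to 428 FPKM. Of the 9, 5 in WT and 3 in knock-in were under 1 FPKM in all 3 libraries. The pluripotency markers, of which 7 of 10 had a row, summed to 112 to 140 in WT and 273 to 487 in knock-in. LIN28A (mean 185 against 40.2 FPKM) and NANOG (74.5 against 17.9) were called higher and rose most. SOX2 was higher with separate ranges (difference 0.60) and not called, and LIN28B (0.42) and SALL4 (-0.01) overlapped. TDGF1 was lower in the mean and not tested, and ZFP42 was at 0 in all 12 libraries. FAP of the fibroblast and CDX2 of the trophectoderm list were listed at 0 in all 12 libraries, and all 9 endothelial markers were under 1 FPKM in every library of the 4 groups. The 9 neural ectoderm markers summed to 257 to 327 in WT and 292 to 340 in knock-in, which overlap, but single genes of that list differed in both directions. PAX6 was called lower in knock-in cells, with means of 2.94 against 16.6 FPKM in WT (difference -2.17, limma adjusted p = 0.040), while NES, at 136 against 78.1, and POU3F2, at 6.59 against 3.11, had separate and higher ranges and were not called. The part of these cell types in the differences of the Notch pathway genes was not tested.

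Under Activin A against SB431542, 1 of the 9 genes, HES1, was called, where 0.0929% of the 13999 genes tested were, 0.0571% higher and 0.0357% lower. The ranges were separate for 5 of the 9 genes, all higher under Activin A, while 20% of all genes had separate ranges with 9.19% higher and 10.8% lower. These 5 were the 4 HES and HEY genes and NOTCH3. The median difference was 1.42 over the HES and HEY genes, 0.51 over the receptors and ligands and -0.0040 over all genes tested.

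Libraries with the same number deviated together in this table. Across 13696 genes the deviations of an Activin A and an SB431542 library from their group means correlated at 0.404 to 0.590 where the numbers matched and at -0.504 to -0.150 where they did not. Each deviation is taken from the mean of its own group, so the negative values follow in part from the positive matched ones. A fit with the number as a block, taken as an alternative, called 0.707% of the genes, 0.521% of them higher, and among the 9 genes it called HES1 and HEY1.

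HES1 was at 43.9, 75.4 and 62.9 FPKM under Activin A and at 6.60, 8.94 and 6.20 under SB431542. The groups were far apart, and Activin A exceeded SB431542 6.65-fold, 8.43-fold and 10.1-fold in libraries 1, 2 and 3. The difference was 2.88 ± 0.22 (SE, n = 3 per group, 95% confidence interval 2.37 to 3.40, limma adjusted p = 0.024). The difference ranged from 2.71 to 3.10 over the fits that leave out 1 library each, but the call was lost without Activin A library 2 or 3 or SB431542 library 1 or 3, where the limma adjusted p ran from 0.067 to 0.17.

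HEY1 was at 8.72, 10.8 and 6.01 FPKM under Activin A and at 0.872, 2.02 and 1.57 under SB431542. No library of the inhibitor group came near the lowest Activin A library, and Activin A exceeded SB431542 5.37-fold in library 2, 3.82-fold in library 3 and by more than either in library 1. The difference was 1.93 ± 0.25 (SE, n = 3 per group, 95% confidence interval 1.34 to 2.53, limma adjusted p = 0.070) and was not called. It was called with the replicate block (limma adjusted p = 0.027) and when all 12 libraries were fitted together (limma adjusted p = 0.0046).

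HEY2 was at 2.89, 3.03 and 2.54 FPKM under Activin A and at 0.981, 1.20 and 0.902 under SB431542, and HES4 was at 48.8, 43.9 and 58.1 against 28.4, 31.2 and 32.8. Both genes had separate ranges. The difference of HEY2 was 0.91 ± 0.11 (SE, n = 3 per group, limma adjusted p = 0.056, or 0.022 with the replicate block), and that of HES4 was 0.68 ± 0.12 (SE, n = 3 per group, limma adjusted p = 0.11, or 0.034 with the block). Neither reached the size set for a call, in either fit. Across the 4 effectors the difference was therefore largest for HES1 and smallest for HES4, the effector with the highest level under SB431542.

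**Figure D2:**
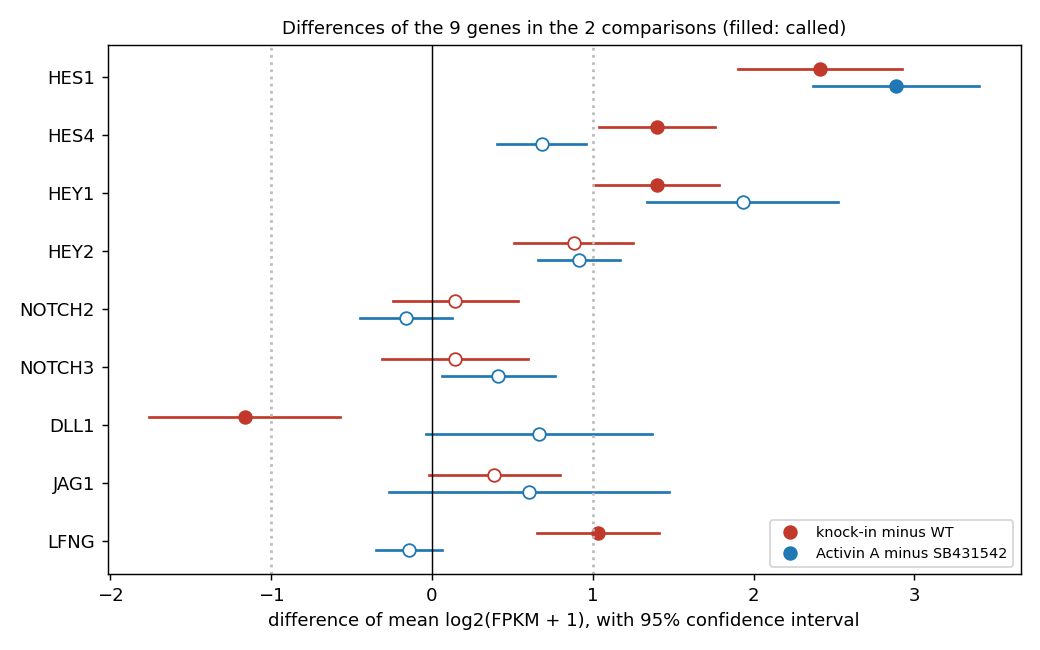
Difference of mean log2(FPKM + 1) of each of the 9 genes, knock-in minus WT in red and Activin A minus SB431542 in blue, with 95% confidence intervals; filled points were called and dotted lines mark a difference of 1. HES1 lies at 2.41 and 2.88 and is filled in both, and DLL1 lies at -1.16 and 0.67.

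NOTCH3 was at 16.1, 16.2 and 21.3 FPKM under Activin A and at 11.2, 13.3 and 14.9 under SB431542, with the ranges apart by a narrow gap (difference 0.41, 95% confidence interval 0.06 to 0.76, limma adjusted p = 0.33). NOTCH2 was at 18.2, 19.8 and 19.3 against 19.6, 25.7 and 19.5, with a difference of -0.16 (95% confidence interval -0.45 to 0.13, limma adjusted p = 0.62). Neither receptor was called in either fit.

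DLL1 was at 10.3, 9.10 and 11.6 FPKM under Activin A and at 6.60, 3.51 and 9.47 under SB431542. The ranges overlapped, although within each number the Activin A library was the higher. The difference was 0.67 (95% confidence interval -0.04 to 1.37, limma adjusted p = 0.41). JAG1 was at 63.9, 46.5 and 126 against 48.1, 36.4 and 59.9, also higher in each number but overlapping, with a difference of 0.60 (95% confidence interval -0.27 to 1.47, limma adjusted p = 0.54).

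LFNG was at 85.2, 74.8 and 84.8 FPKM under Activin A and at 97.8, 87.9 and 84.7 under SB431542. The groups overlapped and the difference was -0.14 (95% confidence interval -0.35 to 0.06, limma adjusted p = 0.54), so the interval leaves out a change of the size seen between knock-in and WT cells.

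The pericyte and mural cell markers summed to 311 to 431 FPKM under Activin A and to 341 to 462 under SB431542, which overlap, and ACTA2 was called lower under Activin A. MCAM was lower under Activin A too with separate ranges, at 9.77 against 13.9 FPKM, and not called. The fibroblast and feeder markers summed to 58.7 to 85.1 and 32.8 to 38.6, which do not overlap. The genes of that list did not all lie the same way, and limma called 0 of the 8 tested (4 had an unadjusted p under 0.05). COL3A1 (mean 19.0 against 0.988 FPKM), COL1A2 (15.1 against 4.22) and DCN (17.1 against 7.42) were higher in the mean under Activin A, whereas TWIST1 (9.71 against 14.2, with separate ranges) and TWIST2 (4.66 against 7.68) were lower in the mean. With the replicate block COL3A1 (difference 3.08, limma adjusted p = 0.012) and COL1A2 (1.59, 0.024) were called higher. The trophectoderm markers summed to 85.4 to 472 and 121 to 946 and the neural ectoderm markers to 283 to 364 and 259.8 to 325, both overlapping, but single genes of these lists did not follow their sums. GATA2, at a mean of 28.9 against 5.90 FPKM with separate ranges, had a difference of 2.28 and TFAP2C of 1.51, both called higher with the replicate block (limma adjusted p = 0.034 and 0.019), while KRT8, at -1.21, was called lower with it (limma adjusted p = 0.015). Without the block none of these 3 was called (limma adjusted p from 0.16 to 0.65). ZIC1 lay higher under Activin A and FABP7 lower, both with separate ranges and neither called. The pluripotency markers summed to 287 to 482 under Activin A and 310 to 629 under SB431542, which overlap. LIN28A of that list was called lower with the block (difference -1.55, limma adjusted p = 0.015). NANOG of the same list was called higher without it (difference 3.18), and of the 5 tested it was the only 1 above 0. The part of these cell types in the differences of the HES and HEY genes was not tested.

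HES1 was called higher in both comparisons. Among the 13696 genes tested in both, 2 were called higher in both, and the other was NANOG, singled out here after its values were seen. The comparisons share no library, but the treated libraries come from knock-in cells.

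Levels in the 4 groups can be set side by side without a test, since the tables were deposited separately and the media differ. Feeder conditions may differ too, as the paper ran its cytokine screen without feeder cells, and their part was not tested. By their means HES1, HES4, HEY1 and HEY2 had the same order, with Activin A highest, then untreated knock-in, then SB431542, then WT. For HES1 no neighbours in this order overlapped, with steps of 4.05-fold, 2.07-fold and 3.77-fold between the means. HES4 and HEY1 overlapped between knock-in and SB431542, and HEY2 between SB431542 and WT. DLL1 was highest in WT, and its ranges in the other 3 groups overlapped one another. LFNG was at 74.8 FPKM or more in all 9 libraries of knock-in cells, treated or not, and at 53.5 or less in WT. NOTCH2, NOTCH3 and JAG1 overlapped between every pair of neighbours in their order. From the lowest to the highest of the 12 libraries HEY1 spanned 64.2-fold and HES1 42.2-fold, while NOTCH2 spanned 1.79-fold and NOTCH3 1.92-fold.

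Among the 3 groups of knock-in cells the order Activin A, untreated knock-in, SB431542 was read within each library number, again without a test. HES1 under Activin A was 4.30, 4.72 and 3.35 times the untreated knock-in library of the same number, and under SB431542 it was 0.646, 0.560 and 0.330 times that library. HEY1 was at 4.76, 3.39 and 2.84 times under Activin A and at 0.476, 0.631 and 0.743 times under SB431542. HEY2 and HES4 also had their highest value under Activin A and their lowest under SB431542 in each number. The order was not particular to the effectors, since the receptor NOTCH3 had it in each number too, at 11.2, 13.3 and 14.9 FPKM under SB431542, 12.4, 14.1 and 18.5 in untreated knock-in and 16.1, 16.2 and 21.3 under Activin A. HES5, HES6, DLL3 and NEUROG1, described further on, also had it in each number, whereas NOTCH2, DLL1, JAG1 and LFNG did not.

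**Figure D3:**
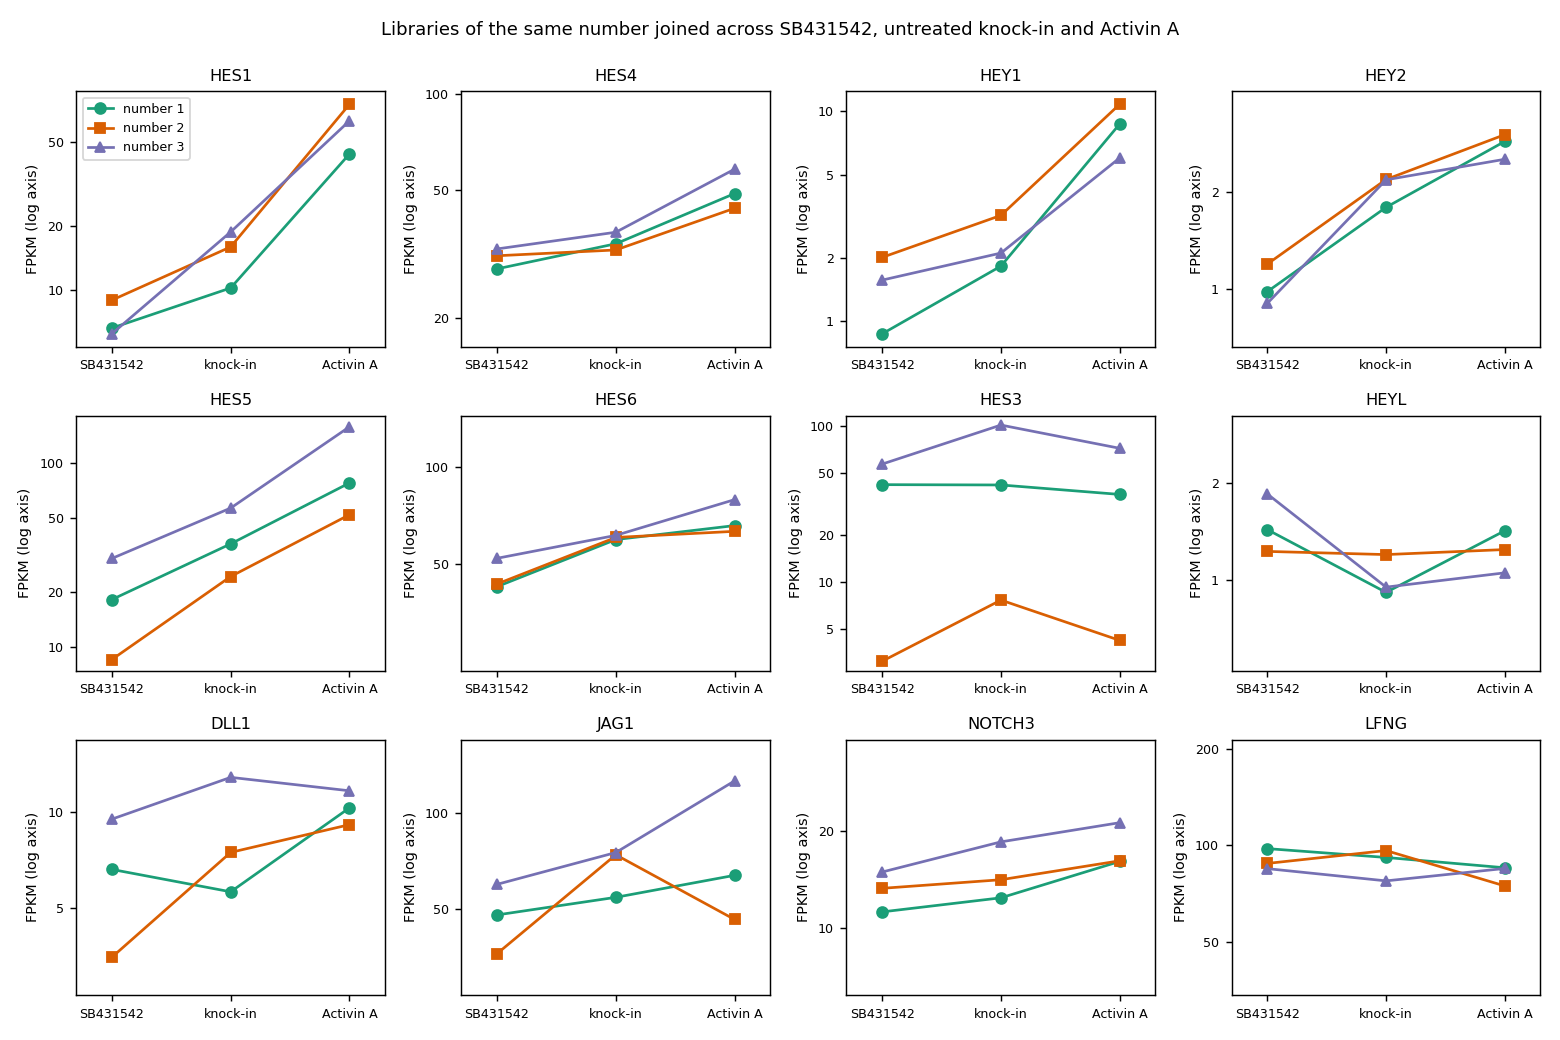
FPKM (log axis) of 12 genes in SB431542, untreated knock-in and Activin A libraries, with libraries of the same number joined; the untreated libraries come from the other table. HES1, HES4, HEY1, HEY2, HES5, HES6 and NOTCH3 climb from left to right in every number, while HES3 keeps library 2 lowest throughout, at 3.11 to 7.66.

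Over the 12 libraries, the gene with a symbol whose log2(FPKM + 1) was most like that of HES1, among 12394 compared, was HEY1 (Pearson r = 0.971), followed by FSTL3 (0.969), FAM163B (0.952), SOCS1 (0.951) and CCN2 (0.946). FSTL3 encodes a secreted protein that binds Activin, and SOCS1 an inhibitor of cytokine signalling. HES1 was in turn the gene most like HEY1, ahead of GATA2 (0.963), COPS6 (0.959), C1QTNF1 (0.949) and PTGS2 (0.941). HEY2 came 10th and HES4 29th by likeness to HES1, at 0.936 and 0.905. NOTCH3 reached 0.624, LFNG 0.610, JAG1 0.460, NOTCH2 0.313 and DLL1 -0.348. The genes most like HES4 were ITPRIP (0.982), SMARCA4 (0.977), MEX3A (0.968), MARCKSL1 (0.967) and GAK (0.966). These correlations are descriptions, since the 12 points fall into 4 groups and share lines and tables.

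The wider pathway was read from lists of 60 further genes, of which 58 had a row and 54 were tested in each comparison. In knock-in against WT cells 1 of the 54 was called, MFNG, where 2.31% of all genes tested were, and the median difference was 0.07. Under Activin A against SB431542 limma called 0 of the 54, where it called 0.0929% of all genes tested. Of the 54, 11 had an unadjusted limma p under 0.05, as did 12.8% of all genes tested, and their median difference was 0.02. With the replicate block 1 was called in that comparison, HES5, where 0.707% of all genes tested were.

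MFNG encodes another glycosyltransferase of the LFNG family and was lower in knock-in cells, at 2.07, 1.33 and 2.26 FPKM against 6.73, 6.55 and 3.64 in WT (difference -1.18 ± 0.24, SE, n = 3 per group, limma adjusted p = 0.035). LFNG and MFNG were thus called in opposite directions. The call of MFNG was lost without WT library 1 or 2 or any knock-in library, at differences from -1.27 to -1.03 (limma adjusted p from 0.059 to 0.11). Over all 16 alternatives MFNG was called in 9.

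HES5, the effector most used by neural progenitors, was at 77.8, 52.4 and 157 FPKM under Activin A and at 18.2, 8.61 and 30.3 under SB431542. The groups were separate, and the ratios by number were 4.28, 6.08 and 5.16, closer together than the levels. The difference was 2.28, with an SE of 0.52 without the block and 0.09 with it (n = 3 per group), and the limma adjusted p was 0.18 without and 0.0083 with the block. Between knock-in and WT cells HES5 overlapped, at 36.4, 24.2 and 56.9 against 13.5, 37.6 and 23.6 (difference 0.66, limma adjusted p = 0.31).

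HES6, which encodes a relative that counteracts HES1, was at 59.5, 60.4 and 61.3 FPKM in knock-in and at 45.9, 41.4 and 35.5 in WT (difference 0.56, limma adjusted p = 0.033), and at 65.8, 63.1 and 79.2 under Activin A against 42.4, 43.2 and 52.0 under SB431542 (difference 0.58, limma adjusted p = 0.15). Both pairs of ranges were separate, and neither difference reached the size set for a call. HEYL, the third HEY gene and named here after its values were seen, was at 0.912, 1.20 and 0.947 FPKM in knock-in and at 0, 0.285 and 0.0847 in WT (difference 0.85, limma adjusted p = 0.016). With a pseudocount of 0.1 the difference of HEYL was 2.53 and after rescaling to TPM 1.52, and it was called in both (limma adjusted p = 0.029 and 0.016), while at a pseudocount of 0.01 it was 3.97 and not called (limma adjusted p = 0.074). Under Activin A and SB431542 HEYL overlapped, at 1.42, 1.24 and 1.05 against 1.43, 1.22 and 1.85.

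HES3 followed the library number more than the group. It was at 41.8, 7.66 and 101 FPKM in knock-in libraries 1, 2 and 3, at 36.4, 4.23 and 71.7 under Activin A and at 42.0, 3.11 and 56.8 under SB431542. Library 2 was the lowest and library 3 the highest in all 3 groups. WT was at 18.2, 12.9 and 29.1, and HES3 was not called in either comparison (limma adjusted p = 0.57 and 0.97).

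**Figure D4:**
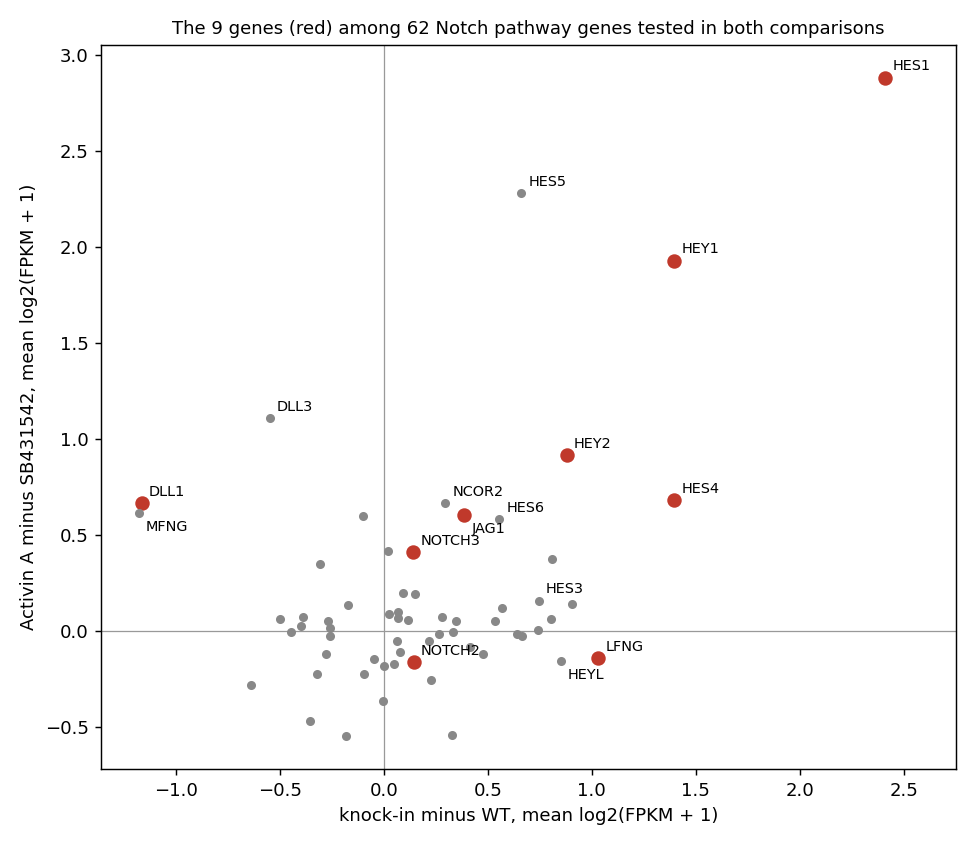
Each point is 1 of 62 Notch pathway genes tested in both comparisons, with the difference of mean log2(FPKM + 1) between knock-in and WT on the horizontal axis and between Activin A and SB431542 on the vertical axis; the 9 genes are red. HES1 and HEY1 pass 1 on both axes, HES5 and DLL3 on the vertical axis only, and HES4 and LFNG on the horizontal axis only.

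The remaining lists had no called gene in either comparison. DLL3, a ligand that acts inside its own cell, was at 4.16, 2.29 and 6.56 FPKM under Activin A and at 1.03, 1.22 and 1.82 under SB431542, with separate ranges (difference 1.11, limma adjusted p = 0.22, or 0.059 with the replicate block). It was at 3.48, 2.10 and 4.07 in knock-in and at 4.95, 5.27 and 4.90 in WT cells (difference -0.55, limma adjusted p = 0.13), so the sign differed between the comparisons, as it did for DLL1 and MFNG. DNER, the most abundant of the other ligands, ran from 34.3 to 95.5 FPKM and overlapped in both comparisons, and DLL4 did not exceed 1.43.

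RFNG, POFUT1 and POGLUT1, other enzymes that modify Notch sugars, ran from 10.5 to 23.7, from 14.9 to 20.9 and from 5.12 to 7.27 FPKM over the 12 libraries. The proteases that cut the receptor had median differences of 0.06 and -0.03, with NCSTN, a γ-secretase subunit, between 45.2 and 57.3 FPKM, APH1A between 34.5 and 53.7 and ADAM10 between 18.0 and 24.9. In the nuclear complex SNW1 ran from 59.7 to 78.1, EP300 from 15.4 to 26.7 and KAT2A from 16.5 to 21.2. RBPJ had means of 8.64 in knock-in and 4.09 in WT, with overlapping ranges (difference 0.81, limma adjusted p = 0.19). MAML1 lay higher in knock-in with separate ranges, at 19.8 against 13.8 (difference 0.48, limma adjusted p = 0.095). Of the 9 complex genes tested, 6 had a difference above 0 in that comparison. RBPJ means were 9.76 under Activin A and 7.90 under SB431542, also overlapping. Among the co-repressors HDAC2 ran from 119 to 155 and CTBP1 from 54.5 to 102, and HDAC1 was at 124 to 175 in 11 libraries and at 27.2 in WT library 2. Among the ubiquitin ligases DTX4 ran from 14.5 to 51.0, MIB1 from 23.7 to 37.1 and FBXW7 from 14.0 to 25.6. None of these genes was called in either comparison by limma, with or without the replicate block, but some had separate ranges. In knock-in against WT, 13 of the 54 further pathway genes had separate higher and 3 separate lower ranges, where 19% and 16.7% of all genes did. Under Activin A against SB431542 it was 5 and 5, where 9.19% and 10.8% of all genes did. CTBP1, a co-repressor, was higher in knock-in than in WT cells, at means of 91.0 against 57.1 FPKM (difference 0.66, limma adjusted p = 0.015, or 0.043 with the replicate block), which passed the p threshold but not the size set for a call. POFUT1 (19.3 against 15.9) and FBXW7 (18.6 against 15.2) also lay higher in knock-in cells, and MIB1 (26.6 against 36.2) lower. Under Activin A, EP300 (20.3 against 24.5) and SNW1 (60.2 against 70.4) lay lower than under SB431542.

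Of the proneural genes, which HES factors repress in neural tissue, NEUROD4 and NEUROG1 are described here. NEUROD4 was at 8.93, 4.88 and 13.9 FPKM in knock-in cells against 16.9, 33.1 and 17.6 in WT, with separate ranges, and was not called (difference -1.24, limma adjusted p = 0.085).

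NEUROG1, which drives sensory neuron fates, was at 41.1, 40.2 and 88.5 FPKM under Activin A and at 10.4, 8.88 and 28.9 under SB431542, with ratios by number of 3.94, 4.53 and 3.06 (difference 1.84, limma adjusted p = 0.21 without and 0.012 with the replicate block, which called it). In knock-in and WT cells it was at 27.7, 24.9 and 60.1 against 11.0, 19.3 and 26.0 (difference 0.93, limma adjusted p = 0.17).

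In the RefSeq annotation of Sscrofa11.1, HES1 lies on chromosome 13 from 131135970 to 131137865, HES4 on chromosome 6 from 63351593 to 63356690, HEY1 on chromosome 4 from 56859640 to 56863807 and HEY2 on chromosome 1 from 37219887 to 37231321. None of these 4 overlaps another annotated gene. DLL1 lies on chromosome 1 from 198815 to 211346 and JAG1 on chromosome 17 from 19591248 to 19629659, also with no overlap. NOTCH2 (chromosome 4, 100951522 to 101152348), NOTCH3 (chromosome 2, 62364507 to 62402348) and LFNG (chromosome 3, 1721044 to 1819426) overlap other annotated genes, for LFNG CHST12 and GRIFIN. Whether strand was used in the quantification is not given in the sources used here, so reads from such overlaps may be shared. FPKM was given per gene, and the values cover all transcripts of a gene together.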

How the data were processed

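RNA-seq of 12 libraries in 4 groups was used. After trimming (Trim Galore), the authors mapped the reads with HISAT2 2.0.4 to pig genome Ssc11.1, and StringTie 1.3.3 gave the FPKM values per gene that they deposited in 2 tables of 24358 genes. FPKM is scaled to library size and gene length, so no counting error can be given. The authors tested counts, which were not used here.

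Within each table, genes with at least 0.1 FPKM in 3 of 6 libraries were kept, log2(FPKM + 1) was taken, and limma 3.58.1 (R 4.3.3) was run with a variance trend and Benjamini-Hochberg adjustment over all genes tested. On simulated data of the knock-in comparison it recovered 193 of 200 genes changed by 2 on the log2 scale, with 3 false calls, and 182 with 4 in the other. The simulated noise was drawn for each library on its own, and genes of low FPKM were not among those changed. These counts therefore do not give the sensitivity for genes of low FPKM or for libraries that share a number. Alternatives were other pseudocounts, filters and scalings, no variance trend, all 12 libraries together, a replicate block and each library left out.

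The pairing in the Activin A table comes from library numbers, which the study also gives its knock-in lines. It rests on correlated deviations of 0.404 to 0.590. Members and lists were chosen with earlier results of these data known. Besides the members, genes named are called pathway genes and the most abundant of each pathway or proneural list (at most 3). The 5 genes most like HES1, HES4 or HEY1 are also named. NANOG, HEYL, RBPJ, MAML1 and the marker genes named fall outside this rule. Blank symbols were filled for 965 genes from a name table. Figures were drawn with matplotlib 3.10.9. 1 listed gene is not reported here.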

Additional observations from a re-analysis of the deposited data

How the results depend on the processing

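Between knock-in and WT cells, HES1 (2.24 to 2.91), HES4 (1.24 to 1.51) and HEY1 (1.23 to 3.13) were called in all 16 alternatives. HEY2 was called at 1.55 and 1.69 with pseudocounts of 0.1 and 0.01 and at 1.26 after rescaling to TPM. LFNG was called in 10 and DLL1 in 9 of the 16. LFNG was not called after quantile normalization (0.91), and DLL1 was not with no filter on low values (-1.16). Leaving out each library gave 0.90 to 1.19 for LFNG, -1.46 to -0.93 for DLL1, -0.010 to 0.30 for NOTCH3 and -0.057 to 1.72 for HES3. Between Activin A and SB431542, HES1 was called in 12 of the 16 alternatives (2.71 to 3.10 with each library left out), and HES3 ran from -1.04 to 1.26. The reversed signs of HES3 were -0.057 without knock-in library 3, -0.15 and -0.63 without Activin A library 1 and 3 and -1.04 without SB431542 library 2. HEY1 was called at 1.93 with the replicate block and with all 12 libraries fitted together. In the first comparison library numbers deviated together by at most 0.096, so knock-in and WT libraries share only a number. The replicate block there left LFNG at 1.03 (limma adjusted p = 0.052), DLL1 at -1.16 (0.068) and MFNG at -1.18 (0.074) uncalled. The counts of called genes over the whole first table were 225 higher and 99 lower. They were 346 and 192 with a pseudocount of 0.1. Lower calls numbered 181 with a pseudocount of 0.01, 42 with no filter, 156 after TPM rescaling and 60 with the replicate block, and leaving out each library gave 119 to 298 higher and 28 to 142 lower. Over the Activin A table, 8 genes were higher and 5 lower. The counts were 5 and 3 with a pseudocount of 0.01, 3 and 2 with no filter, 2 and 3 with a filter of 1 FPKM, 73 and 26 with the replicate block and 20 and 8 with all libraries fitted together. With no variance trend 3 were higher. Leaving out each library gave 0 to 4 higher and 0 to 1 lower with limma, where 1341 to 1712 genes had an unadjusted p under 0.05. A left-out library leaves fewer samples, and the other causes were not tested. Scaling moved the median of all genes by less than 0.1. Depth is unknown, which limits statements on HEY1, HEY2 and HEYL in WT cells, all under 1 FPKM.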
